A study of Mus musculus with 12 samples.

Results

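The 12 fat libraries of the series were divided by their level of Fasn, the gene of fatty acid synthase, and the other genes were described along that division. The classes were chosen by Fasn in CPM, its counts scaled to a common library total. The 7 libraries with Fasn at 5000 CPM or more were called high-Fasn and the 5 below were called low-Fasn, so all 12 samples were used. The line follows Fasn itself, so Fasn's own difference is a description, and the contrast of the classes sorts the other genes by how closely they went with Fasn in the same samples. It is not a test of a treatment.

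Each library was made by QuantSeq, which reads the 3′ ends of transcripts, from gonadal (peri-uterine) white fat of a pregnant mouse at stage E17.5. The labels give 3 groups of 4 mice. The WT vehicle group carried Tnfrsf11a (Rank) and no Foxn1 Cre and had vehicle. The KO vehicle group was the Tnfrsf11a (Rank) knockout with Foxn1 Cre and had vehicle, and the KO Treg group had the same knockout genotype and the treatment labelled Treg. Foxn1, whose name the Cre carries, is known as a transcription factor of the epithelium of the thymus and skin, and the labels do not say in which cells the gene was deleted. All groups were pregnant, and no group of mice that were not pregnant was analysed here.

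Fat cells make fatty acids from sugar by de novo lipogenesis. Glucose is broken down to pyruvate, pyruvate enters the mitochondrion and leaves it as citrate, and citrate is split by Acly into acetyl-CoA, which Acaca and Fasn build into palmitate with NADPH as the reductant. Elongases and desaturases then modify the chain, and Gpd1, the Agpat and lipin enzymes and Dgat2 join fatty acids to glycerol as triglyceride. The programme is known to be driven by insulin and carbohydrate through the transcription factors SREBP-1c (Srebf1) and ChREBP (Mlxipl), and it falls with fasting.

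Total counts were 5551967 to 12972655 in the high-Fasn libraries and 6583263 to 9617503 in the low-Fasn libraries, so the classes overlapped in depth. The level of Tnfrsf11a in this fat is no check of the knockout, since it was at 4.47 to 10.6 CPM in the WT vehicle libraries and at 5.6 to 10.3 CPM in the knockout libraries of both treatments, and Foxn1 had 0 counts in all 12. Adipocyte markers were at 29025 to 44747 CPM in sum in the high-Fasn and 40498 to 45284 CPM in the low-Fasn libraries. Of 11 mammary epithelium markers none passed the filter on low counts, and Csn3, Wap, Krt5 and Elf5 were at 0 in every library. Libraries that stood apart were KO Treg 2 and KO vehicle 1, which held the placental transcript Psg23 at 166 and 60.6 CPM against 12.7 to 31.9 CPM in the other 10, and WT vehicle 1, KO vehicle 2 and KO vehicle 3, which held the brown-fat gene Ucp1 at 1886, 828.6 and 203.9 CPM against at most 48.8 CPM in the others. Results are given without them where that ends a call. The labels do not say whether libraries share litters or days, and in bulk fat fewer cells of a type and less RNA per cell cannot be told apart.

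Promoter windows of Fasn and of the lipogenic genes Thrsp and Acly are shown. Within the list of fatty acid synthesis genes, the levels of these genes ran most like Fasn's. They come from RefSeq for GRCm38.p6, run from 250 bases before to 50 bases after the annotated start, and are written 5′ to 3′ on the gene's strand. Capitals mark the CCAAT box, the site of factor NF-Y that is known from sterol- and insulin-responsive promoters, on either strand (CCAAT or its reverse complement).
Fasn, chr11:120824498-120824797, minus strand: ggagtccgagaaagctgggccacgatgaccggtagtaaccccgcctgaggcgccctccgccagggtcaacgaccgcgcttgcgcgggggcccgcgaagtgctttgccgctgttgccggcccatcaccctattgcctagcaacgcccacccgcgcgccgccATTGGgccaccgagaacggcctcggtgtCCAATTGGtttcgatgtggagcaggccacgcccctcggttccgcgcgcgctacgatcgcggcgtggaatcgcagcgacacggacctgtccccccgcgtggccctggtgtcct
Thrsp, chr7:97417501-97417800, minus strand: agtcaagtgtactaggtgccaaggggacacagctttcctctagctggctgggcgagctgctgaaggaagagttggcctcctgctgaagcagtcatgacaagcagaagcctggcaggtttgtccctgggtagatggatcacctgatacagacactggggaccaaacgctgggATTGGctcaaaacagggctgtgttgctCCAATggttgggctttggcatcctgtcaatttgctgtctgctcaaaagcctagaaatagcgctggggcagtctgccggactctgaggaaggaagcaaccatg
Acly, chr11:100527951-100528250, minus strand: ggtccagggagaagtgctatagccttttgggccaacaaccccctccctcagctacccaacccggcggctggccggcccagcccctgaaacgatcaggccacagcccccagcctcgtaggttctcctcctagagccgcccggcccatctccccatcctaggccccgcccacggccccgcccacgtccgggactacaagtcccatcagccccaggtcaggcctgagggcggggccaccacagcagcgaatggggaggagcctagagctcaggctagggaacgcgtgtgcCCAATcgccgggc
The Fasn window held 3 CCAAT boxes, of which 2 overlap in opposite directions, the Thrsp window held 2 and the Acly window held 1, which lies after the start. Of 20 genes of fatty acid synthesis, Fasn included, 17 had 19 windows in the table, and 63.2% of these held a CCAAT box, against 37.1% of the 11948 windows of tested genes and 37.4% of all 32851 windows. For the genes called higher with Fasn below, the box was in 37.5% of 8 windows, and for those called lower in 40.0% of 5 windows. The E-box CACGTG was in 10.5% of the 19 windows and in 9.88% of those of tested genes. The sterol element, searched as TCACNCCAC on both strands, was in 5.26% (1 window) against 1.11%, and the GC box GGGCGG in 52.6% against 61.9%. The windows of Gapdh and Elovl6 held none of these letters. That of Slc2a5, outside the list but also among the genes most like Fasn, held 3 GC boxes and none of the other letters. A match is a description of letters, not of a bound site.

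Fasn (chr11:120805846-120824547, minus strand, GRCm38) made up 0.0586% to 0.229% of all counts in the low-Fasn libraries and 0.670% to 1.95% in the high-Fasn libraries. The low values were 586 CPM in KO vehicle 1, 828 in KO vehicle 2, 2074 in KO vehicle 4, 2205 in WT vehicle 4 and 2288 in KO Treg 3. The high values were 6702 in KO Treg 2, 6704 in WT vehicle 1, 10033 in WT vehicle 3, 11813 in KO vehicle 3, 15083 in KO Treg 4, 17564 in WT vehicle 2 and 19538 in KO Treg 1. The library just outside the line, KO Treg 3, and the 2 just inside it, KO Treg 2 and WT vehicle 1, lie nearly 3-fold apart. Each group held both classes, but not in equal number: 3 of 4 WT vehicle and 3 of 4 KO Treg libraries were high, against 1 of 4 KO vehicle libraries. Every comparison of the classes was therefore fitted with group as a term.

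**Figure D1:**
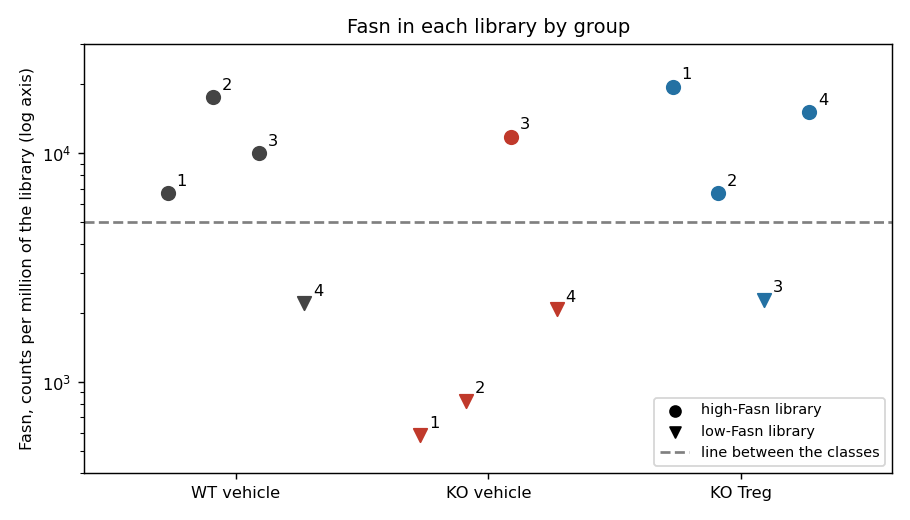
Fasn in CPM of each library's total (log axis) for the 3 groups of 4 mice; numbers name the replicate, circles the 7 high-Fasn and triangles the 5 low-Fasn libraries, and the dashed line stands at 5000 CPM. Only KO vehicle 3 of the KO vehicle group lies above the line, while WT vehicle 4 and KO Treg 3 are the single libraries of their groups below it.

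Along this division 16 of the other 12174 tested genes passed the threshold (edgeR quasi-likelihood test, Benjamini-Hochberg adjusted p under 0.05, group as a term). The 10 that were higher with Fasn (0.0821% of genes tested) were Gys2, Gapdh, Gpd1, Dhrs7, Myl3, Gbe1, Pkm, Pdhb, Dgat2 and H2-Q10. The 6 that were lower (0.0493%) were Cd24a, Pacsin3, F11r, C6, Chrdl1 and Tnfrsf12a. All 16 had the same sign of difference in each of the 3 groups, as had 3682 of all 12174; the call itself favours such genes. For 13 of the 16 the highest library of the lower class lay below the lowest of the higher class (1.28% of all tested genes with the high-Fasn class above and 0.665% with it below). Elovl6 (3.70), Acly (2.89) and Me1 (2.31) of Fasn's own pathway had larger log2 differences than most of these and did not pass. Levels below are CPM on totals scaled by edgeR's TMM factors (0.944 to 1.07), and differences are high minus low on the log2 scale with their standard error (SE).

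Genes of fatty acid synthesis had the widest range. All 19 tested members of the list other than Fasn were higher in the high-Fasn class, with a median log2 difference of 1.17, against a median of -0.01 over all tested genes, of which 47.9% were above 0. In 9 of the 19 the classes did not overlap, where 1.28% of all tested genes had every high-Fasn library above every low-Fasn library. None of the 19 passed the threshold in the fit on classes, whose residual spread includes the differences among libraries of 1 class. Fasn itself, which drew the classes, had a log2 difference of 2.84 and did not pass either. With log2 Fasn as a continuous term in place of the classes 11 of the 19 passed, beside 125 of all other tested genes. That term is Fasn's own level in the same libraries, so its count is a description. With DESeq2 10 of the 19 passed, beside 158 of 12165 tested genes.

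Thrsp, the Spot 14 protein that promotes lipogenesis in the cytosol, followed Fasn most closely. It stood at 529, 385 and 1029 CPM in KO vehicle 1, 2 and 4, at 1417 in KO Treg 3 and at 1196 in WT vehicle 4, and ran from 2477 through a median of 4588 to 6266 CPM in the high-Fasn libraries. The classes did not overlap, the difference was 2.17 ± 0.38, and the correlation with Fasn was 0.984. That correlation is Pearson's r of log2 CPM centred on the group mean over the 12 samples, which share their depth and scaling with Fasn, and it is given as a description.

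Acly, ATP citrate lyase, was at 91.7, 100.4, 253, 330 and 272 CPM in the low-Fasn libraries, in the same order, and at 528 to 3440 CPM (median 1753) in the high-Fasn libraries. Its difference was 2.89 ± 0.64. Elovl6, which extends palmitate to stearate, had the largest difference of the list at 3.70 ± 0.75. It was at 9.70, 26.8, 34.3, 53.0 and 66.5 CPM in the low-Fasn libraries and at 177 to 1480 CPM (median 432) in the high-Fasn libraries. For both genes KO vehicle 1 and 2 were the lowest libraries, as for Fasn itself, and no library of the classes crossed.

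Me1, the malic enzyme that supplies cytosolic NADPH, had a difference of 2.31 ± 0.44 and ran from 248 to 531 CPM in the low class and from 1098 to 4504 CPM in the high class. Acss2, which makes acetyl-CoA from acetate, had 2.23 ± 0.46, Scd2, a desaturase, 1.79 ± 0.39, and Slc25a1, the mitochondrial citrate carrier, 1.64 ± 0.36. Pnpla3 (1.17 ± 0.45) and Tecr, the last enzyme of the elongation cycle (0.78 ± 0.15), were the remaining members without overlap. Acaca, the rate-limiting carboxylase, and Scd1, the main desaturase of fat, overlapped between the classes. Acaca was at 319 to 814 CPM in the low and 736 to 1939 CPM in the high libraries, and Scd1 at 1822 to 4233 and 3812 to 10354 CPM. Acsl1 (0.01 ± 0.17), Elovl5 (0.12 ± 0.17) and Hsd17b12 (0.19 ± 0.18), which activate or lengthen fatty acids, differed by about their SE or less.

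Of the 10 genes most like Fasn by that correlation, among genes with a mean of at least 5 CPM, Thrsp, Acly, Elovl6, Me1 and Tecr are members of the fatty acid synthesis list. The other 5 were Ptges (0.983), Slc2a5 (0.980), Pkm (0.966), Nrn1 (0.955) and Gbe1 (0.947). Slc2a5, the fructose transporter GLUT5, had the largest log2 difference of all tested genes. It stood at 0.228, 0.414, 1.52, 3.11 and 5.83 CPM in KO vehicle 1, 2 and 4, KO Treg 3 and WT vehicle 4, and at 13.5 to 119 CPM (median 66.7) in the high-Fasn libraries. Its difference was 4.67 ± 0.91 and did not pass the threshold; within the groups it was 6.51 in KO vehicle, 3.95 in KO Treg and 2.62 in WT vehicle. Ptges, which makes prostaglandin E2, ran from 25.0 to 52.1 CPM in the low and from 78.8 to 212 CPM in the high libraries, a difference of 1.77 ± 0.33. Nrn1, neuritin, was at 4.57 to 7.35 and 10.7 to 17.6 CPM; its exons overlap Fars2 on the opposite strand.

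**Figure D2:**
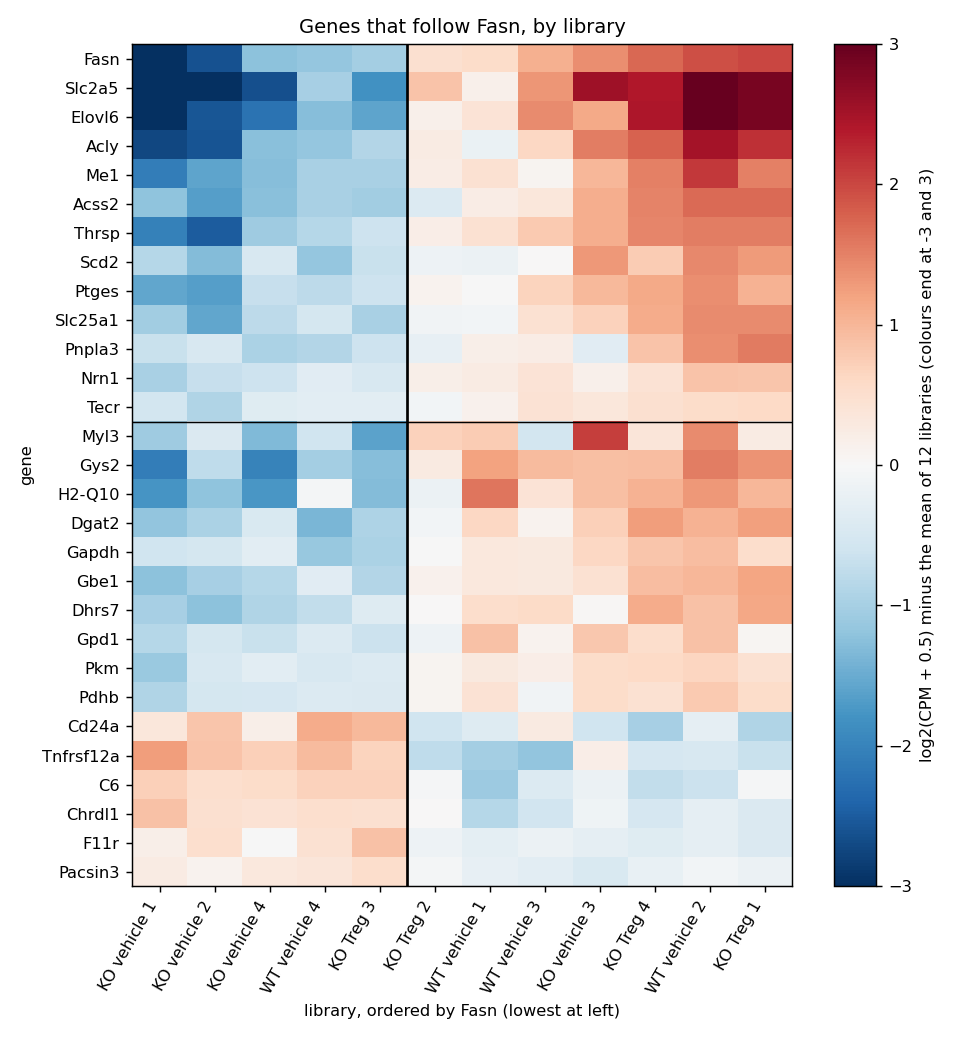
Level of 29 genes in 12 libraries ordered by Fasn, as log2(CPM + 0.5) minus the gene's mean over the 12 libraries. The vertical line divides the 5 low-Fasn from the 7 high-Fasn libraries; the upper block holds Fasn and the fatty acid synthesis and most-like genes whose classes do not overlap and that did not pass the threshold, and the lower block the 16 that passed, where Cd24a to Pacsin3 are lower with Fasn.

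Gys2 had the most stable call of the genes past the threshold, kept in 23 of 31 other settings. Like the others, it did not pass without the 3 libraries with Ucp1. It encodes the glycogen synthase known from liver, on chr6:142422613-142473109, and was a minor transcript in this fat. It was at 1.03, 3.31 and 1.12 CPM in KO vehicle 1, 2 and 4, at 2.18 in KO Treg 3 and at 2.66 in WT vehicle 4, against 7.19 to 18.1 CPM (median 11.9) in the high-Fasn libraries. The classes did not overlap, and the difference of 2.52 ± 0.32, about 5.75-fold, was alike in the groups at 2.69 in KO vehicle, 2.23 in KO Treg and 2.36 in WT vehicle. Gbe1, the glycogen branching enzyme, was at 26.6 to 50.05 CPM in the low and 69.3 to 143 CPM in the high libraries, with a difference of 1.36 ± 0.22.

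Both genes belong to glycogen metabolism, a list added after their values were seen, so its counts are a description. Of its 17 tested members 13 were higher with Fasn, with a median of 0.48. In 5 the classes did not overlap, with the high-Fasn class above, as in 1.28% of all tested genes. Besides Gys2 and Gbe1 these included Ugp2, which makes UDP-glucose (0.50 ± 0.17), and Pgm2, a phosphoglucomutase (0.44 ± 0.14). Pygl, the liver-type phosphorylase that degrades glycogen, was higher by 0.99 ± 0.28 with overlapping classes. Gys1, the synthase with the wider expression, ran from 223 to 314 CPM in the low and from 295 to 436 CPM in the high libraries, and its difference was 0.24 ± 0.13.

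In glucose uptake and glycolysis 16 of 18 tested members were higher with Fasn, with a median of 0.46, and Gapdh and Pkm passed the threshold. Gapdh, the glyceraldehyde-phosphate dehydrogenase often used as a reference gene, was at 133, 138 and 161 CPM in KO vehicle 1, 2 and 4, at 104 in KO Treg 3 and at 90.8 in WT vehicle 4, and at 198 to 379 CPM (median 290) in the high-Fasn libraries. No library crossed and the difference was 1.41 ± 0.19, about 2.66-fold. Reads of Gapdh may be shared with its many processed pseudogenes, and its exons overlap Iffo1 on the opposite strand. Exons of Pkm, pyruvate kinase, overlap Gm49759 on the same strand. Pkm had 0.95 ± 0.16, from 85.5 to 147 CPM in the low and 195 to 291 CPM in the high libraries. Aldoa (0.69 ± 0.14), Gpi1 (0.68 ± 0.13) and Pfkm (0.65 ± 0.20) were without overlap as well and did not pass. Slc2a4, the insulin-responsive glucose transporter GLUT4, had 0.92 ± 0.21 and overlapped, at 177 to 368 CPM and 337 to 604 CPM.

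From pyruvate to citrate, 18 of 21 tested members were higher with Fasn and Pdhb passed. Pdhb and Pdha1 are the subunits of the first enzyme of the pyruvate dehydrogenase complex. Pdhb was at 178, 230, 234, 246 and 251 CPM in KO vehicle 1, 2 and 4, KO Treg 3 and WT vehicle 4 and at 311 to 573 CPM (median 455) in the high class, with 0.95 ± 0.17, and Pdha1 had 0.69 ± 0.14. Mpc1, of the mitochondrial pyruvate carrier, had 1.12 ± 0.24 and Pdk1, a kinase that inhibits the complex, 0.86 ± 0.16; neither overlapped between classes and neither passed. The inhibitory kinases Pdk2 and Pdk4 are among the 3 members on the other side of 0. In NADPH supply all 9 members were above 0, with Tkt (2.12 ± 0.53) and Pgd (0.99 ± 0.22) of the pentose phosphate pathway next to Me1, and none passed.

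Triglyceride assembly was uneven, with 12 of 17 members above 0, a median of 0.16, and 2 members past the threshold. Dgat2 (chr7:99153658-99182719), which adds the last acyl chain, was at 349, 413 and 579 CPM in KO vehicle 1, 2 and 4, at 420 in KO Treg 3 and at 306 in WT vehicle 4, and at 751 to 1900 CPM (median 1300) in the high class. Its difference was 1.80 ± 0.29, without overlap, while that of Dgat1, an unrelated enzyme of the same step, was 0.16 ± 0.13. Gpd1 (chr15:99717515-99725005), which makes glycerol 3-phosphate from a glycolytic intermediate, was at 818 to 1111 CPM in the low and 1340 to 2745 CPM in the high libraries, with 1.14 ± 0.18 and no overlap of the classes. Its exons overlap Gm16537 on the opposite strand. Pck1, an enzyme of the route to glycerol 3-phosphate that starts without glucose, overlapped widely, and its difference was smaller than its SE (-0.44 ± 0.47). It was at 247 and 242 CPM in WT vehicle 2 and KO Treg 1, the libraries with the most Fasn, and at 1796 CPM in KO vehicle 1, that with the least. KO vehicle 1 is also a library with placental transcript. Under 30 other settings the Pck1 difference ran from -1.19 to 0.22 and did not pass. Agpat2 had 0.93 ± 0.21 and Mogat2 2.04 ± 0.57, both with overlap. Gpam, the first acyltransferase, had 0.03 ± 0.19.

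Transcripts of the regulators of lipogenesis were split. Of 17 tested members 10 were above 0, the median was 0.10 (-0.09 without KO Treg 3 and 0.30 without WT vehicle 4), none passed and in none were the classes apart. Srebf1 was at 16.2 to 38.8 CPM in the low and 19.5 to 83.1 CPM in the high libraries (0.64 ± 0.45). Mlxipl, the ChREBP gene, ran from 104 to 201 and from 181 to 446 CPM (0.52 ± 0.22), and its partner Mlx had 0.67 ± 0.21. Pparg (0.26 ± 0.32) and Cebpa (0.20 ± 0.13), which specify fat cells, differed by less than 2 SE. Counts of 3′ ends do not tell the isoforms of these factors apart.

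**Figure D3:**
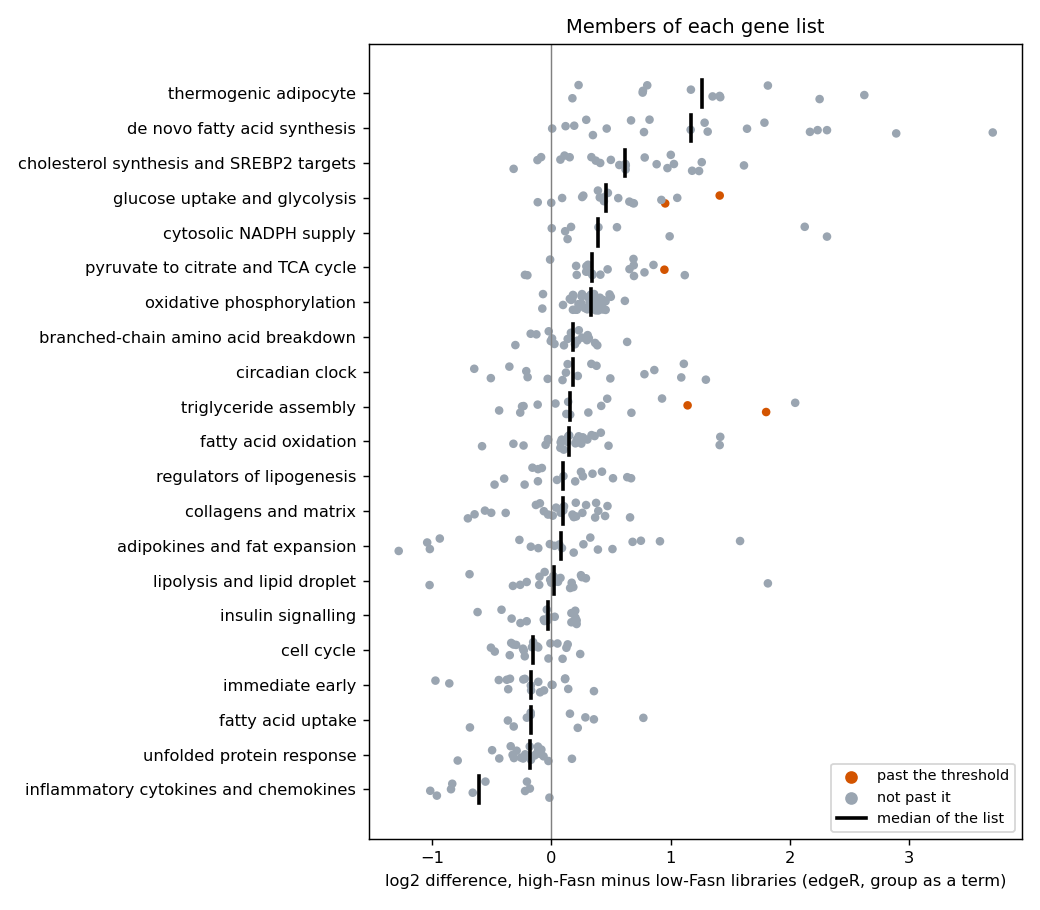
Log2 difference of high-Fasn minus low-Fasn libraries for every tested member of 21 gene lists, Fasn left out, with group as a term; each point is a gene, orange points passed the threshold and the black bar is the list's median. Fatty acid synthesis (median 1.17) and the thermogenic list (1.26, and -0.06 without the 3 libraries with Ucp1) lie farthest to the right, and inflammatory genes (-0.61) farthest to the left.

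Cholesterol synthesis lay on the same side, with 20 of 23 tested members above 0 and a median of 0.62. Its summed level was not higher, at 1179 to 2443 CPM in the high and 1407 to 2522 CPM in the low class. Of all tested genes 1.28% had every high-Fasn library above every low-Fasn library. In 7 members of the cholesterol list the classes did not overlap, among them Nsdhl (1.26 ± 0.25), Tm7sf2 (1.61 ± 0.39), Cyp51 (1.24 ± 0.38) and Pmvk (0.88 ± 0.19). Hmgcs1, an enzyme at the entry of the pathway (-0.32), was on the other side of 0, and no member passed. Of 45 oxidative phosphorylation subunits 43 were above 0 with a narrow range (median 0.33, highest 0.62) and 12 had classes that did not overlap, such as Cox4i1 (0.43 ± 0.12) and Ndufv2 (0.45 ± 0.12); none passed. Fatty acid oxidation (19 of 25 above 0, median 0.15) and the breakdown of branched-chain amino acids (15 of 20, median 0.18) had no member past the threshold and none without overlap. Without the 3 libraries with Ucp1 the medians were 0.17 in oxidative phosphorylation, -0.09 in fatty acid oxidation and 0.09 in branched-chain amino acid breakdown.

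Lists for holding and releasing fat were split. Of 22 tested genes of lipolysis and the lipid droplet 12 were above 0, with a median of 0.02, and Cidec, a droplet protein, was at 3013 to 3835 CPM in the low and 2667 to 3746 CPM in the high libraries. Hilpda, an inhibitor of the lipase ATGL that is known as hypoxia-inducible, was the member without overlap and lay the other way. It was at 120.3 and 120.0 CPM in KO vehicle 1 and 2, at 56.7 in KO vehicle 4, 51.7 in KO Treg 3 and 66.3 in WT vehicle 4, and at 22.8 to 43.4 CPM in the high class (-1.02 ± 0.23, not past the threshold). Fatty acid uptake had 5 of 11 above 0 and insulin signalling 7 of 17, with medians of -0.17 and -0.03 and no member past the threshold. Among adipokines Retn (0.91 ± 0.23) and Orm1 (1.58 ± 0.39) were without overlap, whereas Lep, the leptin gene, had 0.39 ± 0.45 and Adipoq 0.27 ± 0.11. Thermogenic genes were all 12 above 0 with a median of 1.26 and overlapping classes throughout; Cidea, at 3014, 1129 and 813 CPM in WT vehicle 1, KO vehicle 2 and KO vehicle 3, was at most 289 CPM elsewhere. The median of the list was 0.26 without WT vehicle 1, 0.75 without WT vehicle 4, 2.1 without KO vehicle 2 and -0.06 without the 3 libraries with Ucp1.

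Among further genes past the threshold, Dhrs7, a short-chain dehydrogenase, was at 168, 144, 180, 257 and 201 CPM in KO vehicle 1, 2 and 4, KO Treg 3 and WT vehicle 4 and at 344 to 758 CPM in the high class (1.25 ± 0.20). H2-Q10, a secreted class Ib histocompatibility molecule, was at 3.996 to 14.3 CPM and 13.1 to 45.75 CPM (1.97 ± 0.33). Its classes overlapped through WT vehicle 4, and its reads may be shared with related H2 genes. Myl3, a myosin light chain of heart and slow muscle, reached only 5.85 CPM, had at most 6 counts in any low-Fasn library, and overlaps Pth1r on the opposite strand. In skeletal muscle markers all 6 tested members were below 0, and in smooth muscle markers 9 of 10 were above 0, with summed levels of 618 to 3834 CPM in the high and 682 to 2734 CPM in the low class; their part in the Myl3 result was not tested.

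**Figure D4:**
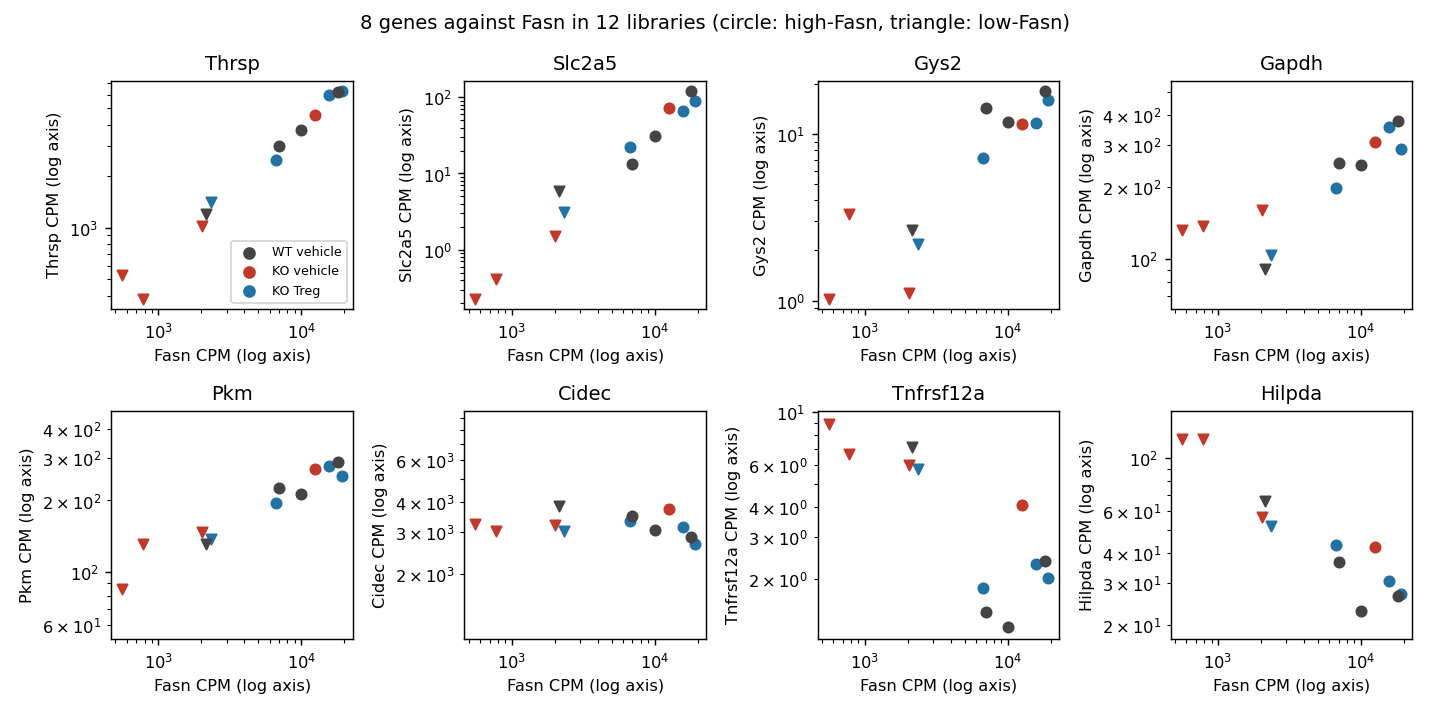
Level of 8 genes against Fasn in the 12 libraries, both in CPM on TMM-scaled totals on log axes; colours are the groups, circles the high-Fasn and triangles the low-Fasn libraries. Thrsp and Slc2a5 are ordered nearly as Fasn, Gys2, Gapdh and Pkm are apart between the classes, Cidec (2667 to 3835 CPM) is level, and Tnfrsf12a and Hilpda run downward.

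The 6 genes that were lower with Fasn share no list used here. Chrdl1, a secreted antagonist of bone morphogenetic proteins, was at 289, 218 and 211 CPM in KO vehicle 1, 2 and 4, at 219 in KO Treg 3 and at 223 in WT vehicle 4, and at 86.3 to 158 CPM (median 115) in the high class. No library crossed, and the difference was -0.86 ± 0.15. Pacsin3, which shapes membranes in endocytosis, was at 121 to 161 CPM in the low and 81.2 to 108 CPM in the high libraries (-0.65 ± 0.10), and overlaps Gm17281 on the opposite strand. F11r, the junctional adhesion molecule JAM-A, had -0.81 ± 0.13, at 98.1 to 182 CPM and 73.0 to 89.6 CPM. C6, a component of the membrane attack complex of complement, held a narrow range in the low class of 23.4 to 27.3 CPM and was at 7.40 to 16.0 CPM in the high class (-1.07 ± 0.18).

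Tnfrsf12a, the receptor of the cytokine TWEAK, was low in all libraries, at 8.90, 6.62 and 5.99 CPM in KO vehicle 1, 2 and 4, 5.75 in KO Treg 3 and 7.10 in WT vehicle 4, against 1.26 to 4.05 CPM (-1.44 ± 0.26), and it did not pass without the 2 libraries with placental transcript. Cd24a, a surface glycoprotein, was at 8.43 to 16.6 CPM in the low and 3.52 to 9.16 CPM in the high libraries (-1.46 ± 0.21), and overlapped through WT vehicle 3. Macrophage and erythroid markers lay on the same side as these genes. All 14 tested macrophage markers were below 0 (median -0.27), with summed levels of 1096 to 1378 CPM in the low and 895 to 1153 CPM in the high class, and all 3 tested erythroid markers were below 0, with sums of 72.6 to 153 CPM and 26.6 to 103 CPM; none passed, and the globin symbols Hba-a1, Hba-a2, Hbb-b1, Hbb-b2 and Hbb-bt were at 0. All 6 tested skeletal muscle markers were below 0 as well (median -0.35), as were 7 of 9 endothelial markers (median -0.12). Of B and plasma cell markers 2 of 3 tested were below 0 (median -1.97). Their sums were 24.4 to 75.8 CPM in the low and 24.7 to 36.9 CPM in the high class. Of T and NK cell markers 4 of 6 tested were below 0 (median -0.24). Mast cell markers (5 of 6 above 0, median 0.27) and smooth muscle markers (9 of 10, median 0.32) lay the other way, and none of these markers passed. The part of these cells in the lower genes was not tested.

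Most members of the stress and inflammatory lists were below 0. In the unfolded protein response 20 of 21 genes were below 0 (median -0.18), among them the chaperones Hspa5 (-0.33 ± 0.14) and Hsp90b1 (-0.44 ± 0.14). All 10 tested inflammatory genes were below 0 (median -0.61), with Ccl9 at -0.66 ± 0.16. Immediate early genes were below 0 in 13 of 19, and Btg2 among them did not overlap, at 40.0 to 47.0 CPM in the low and 27.4 to 38.1 CPM in the high class. No member of these lists passed. Every high-Fasn library lay below every low-Fasn library in 81 of all tested genes, which is 0.665%. Cell cycle genes (5 of 20 above 0, median -0.16), matrix genes (19 of 28, median 0.10) and clock genes (12 of 18, median 0.18) had none past the threshold either.

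Measures that did not draw the line were the differences among groups. Whether the class difference itself differed between groups was tested by an interaction of class and group: 0 of 12175 genes passed in edgeR (0% called), 365 had an unadjusted p under 0.05, the smallest adjusted p was 0.992, and DESeq2 called 2. The KO vehicle group had 1 high-Fasn library and the others 1 low-Fasn library each, so this test rests on single libraries. With Fasn class as a term, KO vehicle differed from WT vehicle in 4 genes (0.0329% of those tested), against 34 without the term, of which 3 are shared. The classes are unequal among the groups, so the class term may hold part of a group difference, here and for KO Treg. Pcolce2, an enhancer of procollagen processing, was at 58.3 to 64.5 CPM in KO vehicle and 25.2 to 33.6 CPM in WT vehicle libraries (1.09 ± 0.14, edgeR adjusted p = 0.0181). Its difference between the Fasn classes was 0.11 ± 0.12. Fmo1, a flavin monooxygenase (-0.89 ± 0.13), Apoc1, an apolipoprotein (-1.11 ± 0.17), and Lcn2, lipocalin 2 (-3.35 ± 0.48), were lower in KO vehicle at an edgeR adjusted p of 0.0238 each. Without the term Lcn2 was at an edgeR adjusted p of 0.0836, at 0.685 to 2.17 CPM in KO vehicle and 3.22 to 24.7 CPM in WT vehicle libraries. None of the 4 passed without the placental libraries, without the Ucp1 libraries, or without KO vehicle 2, 3 or 4, KO Treg 4 or WT vehicle 4, and 1 passed without KO vehicle 1 or WT vehicle 3.

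KO Treg did not differ from KO vehicle in any gene past the threshold with the class term in edgeR (0% called), while 624 genes had an unadjusted p under 0.05 and DESeq2 called 4. Dysf, dysferlin, which repairs membranes, had the smallest p (-0.95 ± 0.16, edgeR adjusted p = 0.337 with the term and 0.04997 without it). It was at 17.9 to 28.8 CPM in KO Treg and 51.1 to 55.1 CPM in KO vehicle libraries, without overlap.

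The calls along the Fasn division rest on few libraries. Without KO vehicle 3, KO Treg 3 or WT vehicle 4, each the single library of its class in its group, none of the 16 remained, and likewise without the 3 libraries with Ucp1, which leave KO vehicle with low-Fasn libraries only, or with the series of animal numbers in the sample titles, a higher and a lower run, as a term. All KO vehicle libraries were in the lower run. KO Treg 3 and WT vehicle 4, the only low-Fasn libraries of their groups, were in the higher run. Class and group are thus partly tied to the series, and the fit with that term cannot fully separate them. Without the 2 libraries with placental transcript 51 genes passed, and 15 of the 16 remained, all but Tnfrsf12a. None of the 16 changed sign under any setting in which it was tested (30 for Myl3 and 31 for each of the others). The settings reuse these libraries and the call favours differences that are large against their SE, so the kept signs add little.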

How the data were processed

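The deposited files give whole-number read counts per gene symbol for each of 12 libraries. The submitters' processing notes name BWA 0.7.12, TopHat2 2.1.1, SAMtools 1.3.1, HTSeq 0.6.1 and the mm10 build; which step each served, the gene annotation and whether strand was used in counting are not stated there, so reads of overlapping antisense genes cannot be told apart. Of 20632 symbols 12175 passed edgeR's filterByExpr by group (4160 had no count in any library).

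Counts were scaled by TMM and fitted with edgeR 4.0.16 in R 4.3.3 (robust quasi-likelihood test, class and group as terms, Benjamini-Hochberg threshold 0.05), after the code was tested on simulated data. The SE is the log2 difference divided by the root of F. Log2 CPM for correlations used a prior count of 2. Alternatives used DESeq2 1.42.0, limma 3.58.1, other scalings, filters and lines, and left-out libraries. P-values measure only the spread between these samples.

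The members and gene lists were chosen with earlier results of these data known. Named genes were Fasn, the members of smallest p in each list, all members of 3 lipid lists, genes past the threshold, the 10 most like Fasn and the leading genes of the group contrasts. Cd24a, Myl3 and H2-Q10, whose classes overlap, are named because all called genes are, and members outside this rule (Pfkm, Cyp51, Hmgcs1, Pdk2, Pdk4 and the glycogen genes) were picked after their values were seen. Coordinates are from GENCODE M21 (GRCm38).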

Additional observations from a re-analysis of the deposited data

Results flagged for a closer look

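Among Fasn, the genes past the threshold, the most-like genes and the fatty acid synthesis list, 39 genes in all, the highest or lowest library of a class stood far from the others, by Dixon's criterion, in 6 of 78 gene and class combinations. Chance flags about 1 in 20. KO vehicle 1 was flagged in the low class for 3 genes. Pkm was at 85.5 CPM there against 131 to 147 CPM in the other 4 low-Fasn libraries. Pdhb was at 178 CPM against 230 to 251 CPM, and Chrdl1 at 289 CPM against 211 to 223 CPM. KO vehicle 1 also had the least Fasn, and it is a library with placental transcript.

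H2-Q10 was at 14.3 CPM in WT vehicle 4 against 3.996 to 6.10 CPM in the other low-Fasn libraries. In the high class, Tnfrsf12a was at 4.05 CPM in KO vehicle 3 against 1.26 to 2.36 CPM in the other 6, and Acsl1 at 3058 CPM in KO Treg 4 against 1985 to 2384 CPM.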

How the results depend on the processing

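The count of 16 genes was 16 under RLE or upper quartile scaling, a 5 CPM filter, and a line at 2500 CPM or Fasn CPM on TMM-scaled totals, neither of which moves a library to the other class, and 19 with limma voom. It was 27 with no filter, 32 without robust fitting, 158 (112 higher, 46 lower) with DESeq2, 186 with no group term, 125 with log2 Fasn as a continuous term and 61 with the line at 7500 CPM, where 2 of the 16 remained. It was 0 with the series of animal numbers as a term, in the lower series alone, or without the 3 Ucp1 libraries, and 51 without the placental libraries. Of the alternatives chosen after seeing the data, it was 105 without the 2 libraries just above the line, 0 without the KO vehicle group and 1 (Gys2) without KO vehicle 1 and 2. Leaving out single libraries gave 0 to 72: 0 without KO vehicle 3, KO Treg 3 or WT vehicle 4, 2 without KO Treg 4, 4 without KO vehicle 1 or 2, 8 without KO Treg 1, 10 without WT vehicle 2 and 72 without KO Treg 2, with 25 without WT vehicle 3. Where leaving out a library leaves a group with 1 class, that group adds nothing to the contrast. Otherwise the cause was not tested. Gys2 kept its call in 23 of 31 settings, Gapdh in 22, and H2-Q10 and Tnfrsf12a in 13.

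The 4 genes between KO vehicle and WT vehicle with the class term became 15 with no filter, 86 with DESeq2, 1 with continuous log2 Fasn and 34 with no class term, and 0 with the series as a term or without the placental or Ucp1 libraries. Leaving out single libraries gave 0 to 36: 36 without KO Treg 1, 10 without WT vehicle 1, 9 without KO Treg 3, 8 without WT vehicle 2, 7 without KO Treg 2, 1 without KO vehicle 1 or WT vehicle 3, and 0 without the other 5. The 0 between KO Treg and KO vehicle became 4 with DESeq2 and 1 with no class term, and the 0 of the interaction became 2 with DESeq2. No paired analysis was possible because the labels number animals and give the groups no shared replicate numbers. Genes under about 1 CPM, such as Myl3 in the low class, rest on single counts.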
